A study of Mus musculus with 6 samples.

Results

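The adult globin genes of the mouse, Hba-a1, Hba-a2, Hbb-bs and Hbb-bt, were followed in leukaemic cells recovered from bone marrow with the oncogene FLT3-ITD maintained or withdrawn. They were taken by symbol and are 4 of the 53733 named rows of the count table. The 4 genes were proposed with their levels in the compared groups already known, so those levels are given as a description and carry no test.

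Adult haemoglobin is a tetramer of alpha and beta globin chains, each holding a heme group with an iron atom. The chains are made in maturing erythroid cells under factors such as GATA1, TAL1 and KLF1, and their mRNAs persist in young red cells after the nucleus is lost. Myeloid cells are not the usual site of globin synthesis. In bone marrow the globin transcripts are a familiar mark of erythroid cells and of their released RNA.

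The cells were 1 mouse acute myeloid leukaemia line, made from foetal liver cells that carried a constitutive MSCV vector with luciferase and the fusion oncogene MLL-AF9 and a second vector in which a TRE-tight promoter drives DsRED and FLT3-ITD while doxycycline is present. They were injected into the tail vein of NSG mice, an immunodeficient strain that lacks mature lymphocytes but keeps its own red cell production, and engrafted for 96 h with doxycycline in food and water. In the ON group 3 mice then stayed on doxycycline, and in the OFF group 3 mice received regular food and water for 48 h. Viable leukaemic cells were sorted from marrow and sequenced near the 3' ends of their mRNAs, 1 library per mouse. No source used here gives the age of the mice or the markers of the sort. Host and leukaemic cells are both of mouse origin, so the counts do not part their RNA, and in sorted bulk samples more cells of a type and more RNA per cell cannot be told apart.

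Libraries held 8335234 to 9316361 counts, and a single count equalled 0.124 CPM or less, where CPM are counts scaled by library size with TMM factors. A count of 0 allows up to 3 counts, or at most 0.371 CPM; such limits cover counting error only, since the reads carry no molecular identifiers. Rows of the ribosomal RNA locus took 10.1% to 18% of counts. On the second principal component, with 13.5% of the variance, OFF replicate 3 scored -26.9 while the other OFF libraries scored 22.2 and 13. The sorted cells carried myeloid markers, with Ptprc, the leukocyte antigen CD45, at 119 CPM and neutrophil elastase (Elane) at 838 CPM in ON, and all 14 genes of the myeloid list passed the filter on low counts. The list summed to 2784 to 3200 CPM in ON and 4676 to 4892 CPM in OFF; 10 of its genes rose, such as myeloperoxidase (Mpo, log2 fold change 1.41, adjusted p = 1.84e-06), and 1 fell (Ctsg, -0.39, adjusted p = 0.0159). The mouse Flt3 row had 48, 51 and 46 counts in ON and 49, 53 and 83 in OFF (adjusted p = 0.387); whether transgene reads could be counted in it is not known, so it checks no label. Of 13652 rows tested by edgeR's quasi-likelihood method, 17.3% were called higher and 17.5% lower in OFF at an adjusted p under 0.05.

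The alpha genes lie on chromosome 11 of GRCm38, the genome that mm10 names. GENCODE places Hba-a1 at 32283511 to 32284465 and Hba-a2 at 32296489 to 32297298, both on the plus strand and both with 3 exons. The beta genes lie on the minus strand of chromosome 7, Hbb-bs at 103826534 to 103828096 and Hbb-bt at 103812524 to 103813996, also with 3 exons in the transcript compared here. The 2 copies of each chain are close to identical in their coding parts. Hba-a1 and Hba-a2 differed at 1 of 426 coding bases, and Hbb-bs and Hbb-bt at 1 of 441. The last 90 coding bases, before the stop codon and near the end that the assay reads, are shown to let the copies be compared; they come from GENCODE transcripts, and the capital letter marks the base that differs between the copies of a chain.
Hba-a1: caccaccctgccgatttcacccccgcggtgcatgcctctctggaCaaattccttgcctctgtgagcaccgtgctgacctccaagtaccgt
Hba-a2: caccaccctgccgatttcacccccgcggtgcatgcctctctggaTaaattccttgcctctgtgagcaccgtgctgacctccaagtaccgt
Hbb-bs: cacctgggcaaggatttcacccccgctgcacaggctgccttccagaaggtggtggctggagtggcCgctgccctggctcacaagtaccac
Hbb-bt: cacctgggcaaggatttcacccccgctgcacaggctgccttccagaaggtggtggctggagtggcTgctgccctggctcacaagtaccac

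After the stop codon the pairs part ways. The 74 bases of the Hba-a1 tail all matched the 90-base tail of Hba-a2, whereas the tails of Hbb-bs and Hbb-bt matched at 93 bases and differed at 36. Of the 251 windows of 50 bases in the last 300 bases of Hba-a1, 80.1% also occurred in a transcript of another gene, in each case Hba-a2. The share was 73.7% for Hba-a2, 36.7% for Hbb-bs and 36.3% for Hbb-bt, again with the partner copy as the only other gene. A read that falls in a shared window cannot be given to 1 copy by its sequence, and no source used here says how the counting treated such reads. The counts of the alpha copies in particular are therefore uncertain one by one. Their sum does not depend on a split between the copies, but would differ if shared reads were dropped or counted in both rows.

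Upstream of the start sites the alpha copies were again the same, with 247 aligned bases and no mismatch in the 250 bases before each RefSeq start, while the beta copies were 71.7% identical. The 120 bases before the RefSeq start (GRCm38.p6) are shown for 1 alpha and both beta genes, since the 3 share a set of core boxes. Hba-a2 is at chr11:32296372-32296491 (plus strand), Hbb-bs at chr7:103827929-103828048 and Hbb-bt at chr7:103813924-103814043 (both minus strand). Capitals mark matches on either strand to CACCC, the core of the letters that KLF factors bind. They also mark matches to the CCAAT box, and the letters ATATAA are marked as well.
Hba-a2: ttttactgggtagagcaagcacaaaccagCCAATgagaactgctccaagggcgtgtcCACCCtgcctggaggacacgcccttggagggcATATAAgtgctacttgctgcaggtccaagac
Hbb-bs: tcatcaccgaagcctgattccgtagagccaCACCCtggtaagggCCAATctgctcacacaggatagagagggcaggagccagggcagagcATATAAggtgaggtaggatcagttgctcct
Hbb-bt: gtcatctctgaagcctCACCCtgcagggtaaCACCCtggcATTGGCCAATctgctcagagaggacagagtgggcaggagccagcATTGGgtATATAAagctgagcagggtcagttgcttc

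The TATA-like letters ATATAA began 28 to 31 bases before the start in all 4 genes and occurred in 9.1% of the 32851 RefSeq promoter windows of the same 250 bases. CACCC was found in all 4 (52% of all windows), and so was CCAAT (33.8%); in Hbb-bt 2 of the CCAAT matches, on opposite strands, lie side by side. The letters GATAA, a core of GATA sites, were matched once in each of the 4, between 182 and 209 bases before the start and outside the printed stretch, against 22.6% of all windows. These matches are a description of the letters only.

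All 4 adult globin rows had higher counts after FLT3-ITD withdrawal, by about the same factor. Their summed level was 180.6 ± 30.5 CPM in ON and 773 ± 181 CPM in OFF (SD, n = 3 mice in each group), a ratio of 4.28. As a share of all counts the rows held 0.0209%, 0.0188% and 0.0144% of the ON libraries, against 0.0556%, 0.0918% and 0.0858% of the OFF libraries, in the order of their replicate numbers. Globin RNA was thus a small part of every library, and each OFF library held more of it than any ON library.

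Hba-a1, one of the alpha chain genes, had levels of 81.6, 73.5 and 54.3 CPM with FLT3-ITD on, against 219, 365 and 302 CPM with it off. The groups did not overlap, and the lowest OFF value belonged to replicate 1. The log2 fold change of the fit was 2.08 (SE 0.20). Hba-a2, its copy, followed it closely, with 79.0, 70.6 and 57.3 CPM in ON against 206, 334 and 303 CPM in OFF (fitted log2 fold change 2.02, SE 0.18). In both alpha rows ON replicate 3 was the lowest of all libraries and OFF replicate 2 the highest.

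Hbb-bs, the beta chain gene with the larger counts, read 32.6, 28.3 and 26.7 CPM in ON against 100.005, 152 and 152 CPM in OFF (fitted log2 fold change 2.21, SE 0.16). Its ON libraries were the closest together of the 4 genes, with an SD of 10.4% of the mean. Hbb-bt, the other beta gene, read 16.5, 10.8 and 10.6 CPM in ON against 48.6, 76.0 and 63.3 CPM in OFF (fitted log2 fold change 2.30, SE 0.20). The groups were apart for both beta rows too, so the 4 of 4 members did not overlap; over all rows tested, 23.8% were higher in OFF without overlap. By fold change the members ranked 35th to 66th of 13652 rows tested, among 69 rows with a log2 fold change of 2 or more.

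**Figure D1:**
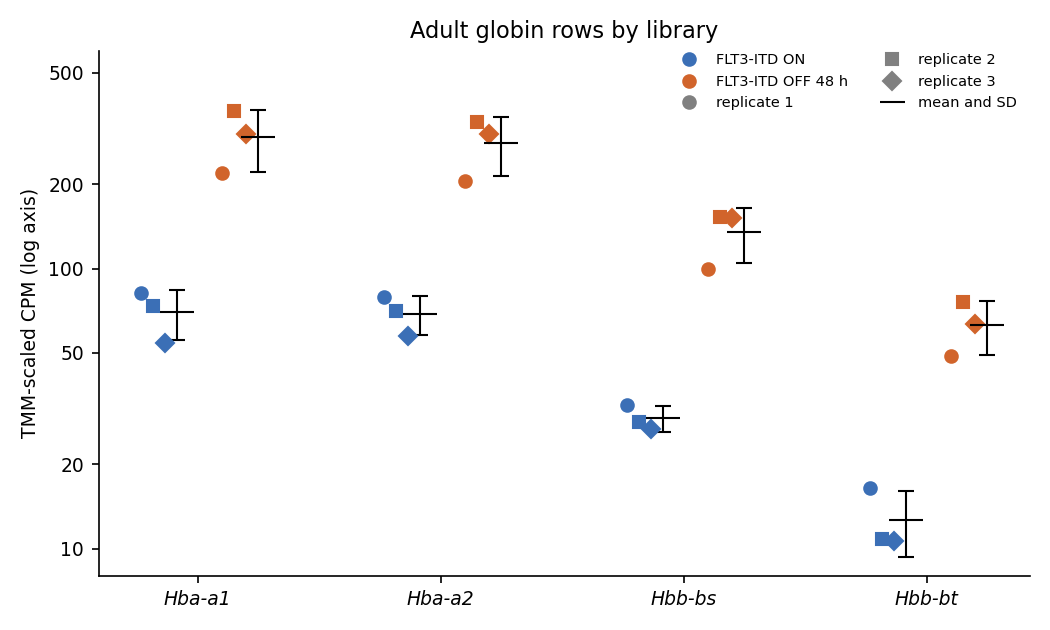
TMM-scaled CPM of the 4 adult globin rows on a log axis, 1 point per library (3 ON in blue, 3 OFF in orange), with the group mean and SD in black. In each gene the 3 OFF points lie above the 3 ON points, with means of 69.8 and 295 CPM for Hba-a1 and 12.6 and 62.6 CPM for Hbb-bt.

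The spread between mice was shared by the genes. Over the 6 libraries the log2 levels of any 2 members had a Pearson correlation of 0.9911 to 0.9987, and 0.8463 to 0.981 when each library was taken as its deviation from the mean of its group. These correlations are descriptions over 6 points that share library and depth, and for the copies also reads. Within OFF, replicate 1 held 5180 globin counts against 8342 and 7474 in replicates 2 and 3. Without OFF replicate 1 the log2 ratio of the summed level was 2.27, and over all 6 libraries left out in turn it lay between 1.95 and 2.27.

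The balance of chains was described by the counts of both alpha rows over those of both beta rows. It was 3.27, 3.69 and 2.99 in ON and 2.86, 3.06 and 2.81 in OFF. The means were 3.32 ± 0.353 in ON and 2.91 ± 0.132 in OFF (SD, n = 3 mice in each group), and the groups overlapped, with OFF replicate 2 above ON replicate 3. The 95% Wilson interval ran from 3.28 to 4.15 in ON replicate 2 and from 2.62 to 3.4 in ON replicate 3. In OFF replicate 3 it ran from 2.67 to 2.96. These intervals cover counting error only. A ratio of counts from different genes is not a ratio of molecules, since the priming of each 3' end was not measured. It also depends on the unknown counting of shared reads. Shared end windows were more frequent in the alpha copies (80.1% and 73.7%) than in the beta copies (36.7% and 36.3%).

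Hba-a1 took 50.8%, 51.0% and 48.7% of the alpha counts in ON and 51.5%, 52.2% and 49.95% in OFF, close to an even split in every library. Hbb-bs took 66.4%, 72.4% and 71.5% of the beta counts in ON and 67.3%, 66.7% and 70.6% in OFF. Both sets of shares overlapped between the groups while the totals differed. How reads shared by the copies were counted is not known and could itself set these shares. They describe the counts of the rows and not the output of each copy.

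**Figure D2:**
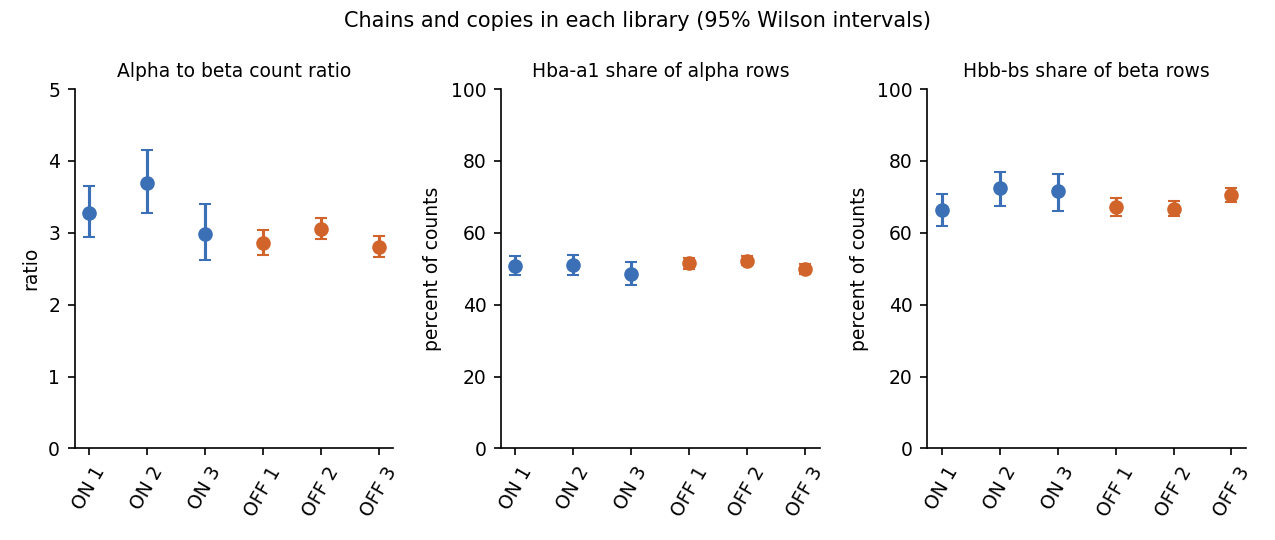
Alpha to beta count ratio (left), Hba-a1 as a percent of alpha counts (middle) and Hbb-bs as a percent of beta counts (right) in each of the 6 libraries, with 95% Wilson intervals for counting error. The ratio lies between 2.81 and 3.69, the Hba-a1 share between 48.7% and 52.2% and the Hbb-bs share between 66.4% and 72.4%.

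The embryonic and other globin genes were at or near 0. Hba-x, Hbb-y and Hbb-bh1, the globin genes of embryonic red cells, had no count in any of the 6 libraries, nor had Hbq1a, Hbb-bh0, Hbb-bh2 and Hbb-bh3. Hbq1b, a theta-like gene between the alpha copies, had 1 count in ON replicate 1. The heme proteins of other tissues were as rare, with at most 2 counts in a library for cytoglobin (Cygb), 1 for neuroglobin (Ngb) and 1 for myoglobin (Mb). Apart from these few counts, globin counts came from the adult genes.

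Genes beside the clusters were examined as a set chosen by position after the levels were known. Within 100 kb of the alpha genes GENCODE lists 10 others, of which 3 passed the filter and none was called. Over all rows tested 34.8% were called in either direction. The 3 rows here and the 1 beside the beta genes are too few to differ from that share. Nprl3, whose introns hold the enhancers of the alpha genes, averaged 13.9 ± 1.88 CPM in ON and 16.9 ± 1.76 CPM in OFF (SD, n = 3), a change of 0.28 on the log2 scale that did not pass (adjusted p = 0.169 by edgeR). Mpg, a DNA glycosylase gene that overlaps Nprl3 on the other strand, gave 0.36 (SE 0.15, adjusted p = 0.085), and Snrnp25 gave -0.24 (SE 0.12, adjusted p = 0.13). Without knowledge of the strand setting, reads of Nprl3 and Mpg cannot be told apart. Beside the beta genes, 1 of 17 neighbours passed the filter, the pseudogene Dnajc19-ps (-0.19, adjusted p = 0.378); most of the others are olfactory receptor genes.

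Red cell and erythroid markers other than globins were few in these libraries, and some of them were more frequent in OFF. Of 35 listed symbols of the red cell membrane and erythroid maturation, 33 had a row, and 13 of these averaged under 3 counts in both groups. The symbols without a row were Ahsp and Tent5c, the latter another symbol of Fam46c. Rhag, Kel, Tspo2 and Trim58 had no count in any library. Only 8 passed the filter. Of these, 2 rose and none fell, a share of 25% higher against 17.3% of all rows tested, and the median log2 fold change was 0.44 against 0.00 over all rows. Of the 8, 3 had an unadjusted p under 0.05 in the edgeR fit, each of them in the higher direction. Over all rows tested, 34.8% passed the stricter adjusted threshold in either direction, so 3 of 8 does not stand out. DESeq2 also called 2 of the 8 higher and none lower. The summed level of the list was 252 to 258 CPM in ON and 331 to 419 CPM in OFF, most of it from Bnip3l and Epb41.

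Bnip3l, which directs the clearing of mitochondria in maturing red cells and is also widely expressed, rose from 127 ± 2.41 to 232 ± 40.9 CPM (0.86 on the log2 scale, SE 0.13, adjusted p = 1.23e-04). Xk, a membrane protein of the Kell complex, rose from 24.9 ± 1.604 to 41.0 ± 7.04 CPM (0.72, adjusted p = 9.04e-04), while its partner gene Kel had no count. The membrane skeleton gene Epb41 gave 0.09 (adjusted p = 0.543), the carbonic anhydrase Car2 gave 0.55 (0.114) and Fam46c gave 0.84 (0.11). Values are mean ± SD of 3 mice per group and adjusted p by edgeR.

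The most specific markers lay close to the counting floor and are given as counts; they were picked out after their values were seen. Alas2, the first enzyme of heme synthesis in red cell precursors, had 8, 1 and 3 counts in ON and 13, 19 and 21 in OFF. It was the 1 such gene with enough counts to be tested and rose by a log2 fold change of 2.03 (SE 0.51, adjusted p = 0.00642 by edgeR), with adjusted p from 0.00117 to 0.0471 over 13 other settings. The log2 fold change of Alas2 ran from 1.57 to 2.97 over these settings, and the upper value came from leaving out ON replicate 1. Slc4a1, the anion exchanger of the red cell membrane, had 1, 3 and 1 counts in ON and 8, 10 and 5 in OFF. With no filter on low counts Slc4a1 was called higher in OFF (adjusted p = 0.0432).

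Among the listed regulators of globin genes, 6 had too few counts to be tested. All 6 overlapped between the groups and did not share a direction. Klf1, which binds the CACCC letters of the beta globin promoter, had 6, 5 and 1 counts in ON and 2, 4 and 7 in OFF. Gata1 had 4, 2 and 0 in ON and none in any OFF library, and Tal1 had none in ON and 1, 1 and 0 in OFF. Zfpm1 had 0, 4 and 1 in ON and 5, 1 and 3 in OFF. Gfi1b had 1, 5 and 7 in ON and 4, 4 and 2 in OFF, and Bcl11a had 5, 6 and 3 against 5, 7 and 8. Epor, the erythropoietin receptor, had no count in ON and 0, 0 and 2 in OFF. Most of these values are at or under 3 counts and allow no fold.

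Alas2, Slc4a1 and the spectrin gene Sptb, put together after their values were seen, had 9, 8 and 5 counts in ON and 25, 36 and 28 in OFF. The summed globin counts were 1842, 1613 and 1204 in the same ON libraries and 5180, 8342 and 7474 in the OFF libraries. Both sums were higher in every OFF library than in any ON library. For the 3 markers this follows in part from picking them with their values known, so it is no test. Single genes did not keep the order of the globin counts, and Alas2 was highest in OFF replicate 3. Sptb overlapped between the groups with 0, 4 and 1 counts in ON and 4, 7 and 2 in OFF. Hemgn, a nuclear protein of erythroid precursors, had 3, 1 and 2 counts in ON and 0, 3 and 3 in OFF. Gypc, of the red cell list, had 7, 14 and 13 in ON and 5, 8 and 7 in OFF. Of the 25 red cell list genes with a row but no test, 2 (Slc4a1 and Add2) were higher in every OFF library. None was lower in every one, and 23 overlapped. Add2 had 1, 0 and 0 counts in ON and 4, 3 and 3 in OFF. Over all rows tested, which passed the filter on low counts, 23.8% were higher and 24.5% lower in OFF without overlap. The 2 of 25 do not exceed that share. The 25 did not pass that filter, though, and ties at their low counts make separation rarer, so the shares are not alike. Some red cell markers were thus higher beside the globin rows, others such as Hemgn and Gypc were not, and most were too rare to tell. The part of red cell markers in the globin result was not tested.

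**Figure D3:**
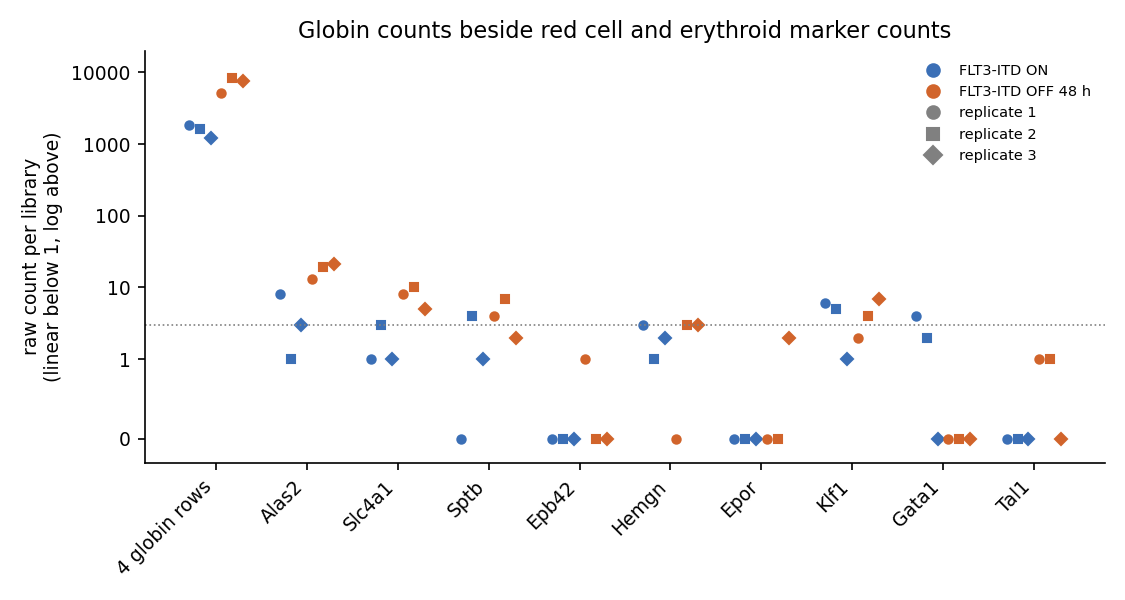
Raw counts per library of the 4 globin rows together and of 9 red cell and erythroid genes, on an axis that is linear below 1 and logarithmic above, with the limit of 3 counts as a dotted line. Globin counts run from 1204 to 8342, whereas no marker exceeds the 21 counts of Alas2 in OFF replicate 3.

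Markers of other marrow cells were low as well. The summed level was 1.36 to 2.505 CPM in ON and 2.19 to 2.55 CPM in OFF for 9 B cell markers, and 1.59 to 3.86 and 2.44 to 5.05 CPM for 9 T and NK cell markers. It was 7.05 to 10.3 and 7.997 to 12.6 CPM for 10 stromal and endothelial markers, with Lepr and Emcn at 0, and 5.57 to 8.63 and 8.19 to 9.77 CPM for 8 markers of basophils, eosinophils and mast cells, with Cpa3 and Fcer1a at 0. The 12 megakaryocyte and platelet markers summed to 33.3 to 38.0 CPM in ON and 56.6 to 67.9 CPM in OFF, nearly all of it Gp1bb, which rose by 0.71 (adjusted p = 2.42e-04). The other 11 were not tested; among them the integrin gene Itgb3 had 6, 4 and 5 counts in ON and 7, 20 and 21 in OFF, and Clec1b, a platelet receptor, had 2, 3 and 1 against 7, 8 and 10. Both were higher in every OFF library, while 1 of the 11 was lower in every one and 8 overlapped. Over all rows tested, 23.8% were higher and 24.5% lower in OFF without overlap, so 2 of 11 does not exceed that share. Those rows passed the filter on low counts and the 11 did not. The part of megakaryocytes and platelets in the globin result was not tested. Vpreb1, a surrogate light chain gene of B cell precursors, passed at the threshold (1.21, adjusted p = 0.0497), a call that was lost in 10 of 13 other settings, 6 of them the libraries left out in turn, with adjusted p up to 0.226. In the T and NK, stromal and basophil lists only 1 gene each could be tested (Nkg7, Pecam1 and Mcpt8), and none of the 3 was called (adjusted p = 0.651, 0.545 and 0.361). Among untested members, the eosinophil granule gene Prg2 had 1, 3 and 0 counts in ON and 6, 5 and 6 in OFF, while the collagen genes Col1a1 and Col1a2 had 13, 4 and 6 and 9, 5 and 5 in ON against 3, 1 and 1 and 5, 5 and 3 in OFF.

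More of the globin regulator list could be tested. Of 27 genes, 21 passed the filter. Of these 6 rose and 2 fell, 28.6% and 9.52% against 17.3% and 17.5% of all rows tested, with a median log2 fold change of 0.11. Klf3, a repressor that binds CACCC letters, rose from 27.7 ± 2.50 to 44.6 ± 4.42 CPM (0.69, adjusted p = 5.99e-04). Lmo2, a bridging partner of TAL1 and GATA1, rose from 111 ± 3.88 to 166 ± 19.2 CPM (0.58, adjusted p = 0.00102). Myb, a transcription factor of blood progenitors, rose from 239 ± 10.9 to 345 ± 7.22 CPM (0.53, adjusted p = 7.08e-04). Bach1, a heme-sensitive repressor of globin genes, rose by 0.56 (adjusted p = 0.00404).

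Nfe2, which binds the beta globin control region, rose by 0.43 (adjusted p = 0.00969), and Nr2c2, a nuclear receptor that represses embryonic beta-like genes, by 0.41 (0.0133). The call of Nfe2 did not hold without ON replicate 1 (0.0689), nor that of Nr2c2 when either ON replicate 1, ON replicate 2 or else OFF replicate 2 was left out (up to 0.0888). The members that fell were Mafk, the small partner of NFE2 (-0.75, adjusted p = 0.0103), and Hic2, a zinc finger repressor (-0.88, adjusted p = 0.0107). The call of Mafk was lost without ON replicate 3 (0.051), and that of Hic2 without ON replicate 1 or OFF replicate 2 (up to 0.0834). The chromatin genes Atrx and Chd4 gave 0.14 and -0.00 (adjusted p = 0.452 and 0.989); Atrx passed in 1 of 13 other settings.

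Heme synthesis runs from the mitochondrion to the cytosol and back, and its enzymes did not move as 1 group. All 21 genes of heme synthesis, transport and breakdown passed the filter, of which 6 rose and 3 fell (28.6% and 14.3%, against 17.3% and 17.5% of all rows tested; median 0.27). The first and the last step were higher in OFF. Alas1, the housekeeping enzyme of the first step, rose from 188 ± 9.67 to 260 ± 21.8 CPM (0.47, adjusted p = 0.00281), and Fech, which inserts the iron, read 17.9, 17.9 and 18.2 CPM in ON against 34.0, 31.4 and 32.7 CPM in OFF (0.86, SE 0.12, adjusted p = 7.23e-05). Urod rose by 0.59 (adjusted p = 0.00338).

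Between them, Cpox fell from 17.3 ± 1.64 to 10.4 ± 1.12 CPM (-0.74, adjusted p = 0.00161), while Alad, Uros and Ppox did not pass (-0.20, 0.69 and 0.32, adjusted p = 0.565, 0.105 and 0.108). The mitochondrial iron importer Slc25a37 rose by 0.75 (adjusted p = 5.67e-04) and the porphyrin carrier Tmem14c gave -0.08 (0.554). Blvrb, which reduces biliverdin and flavins, rose from 6.99 ± 0.656 to 16.2 ± 3.07 CPM (1.22, adjusted p = 1.24e-04), whereas heme oxygenase 1 (Hmox1) gave 0.16 (0.791). Eif2ak1, the kinase that slows globin translation when heme is short, fell from 66.4 ± 1.17 to 49.8 ± 3.23 CPM (-0.41, adjusted p = 0.00722). The porphyrin exporter Abcg2 fell by 0.61 on the log2 scale (adjusted p = 0.0142) and did not pass without ON replicate 1 or OFF replicate 2 (up to 0.0943).

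**Figure D4:**
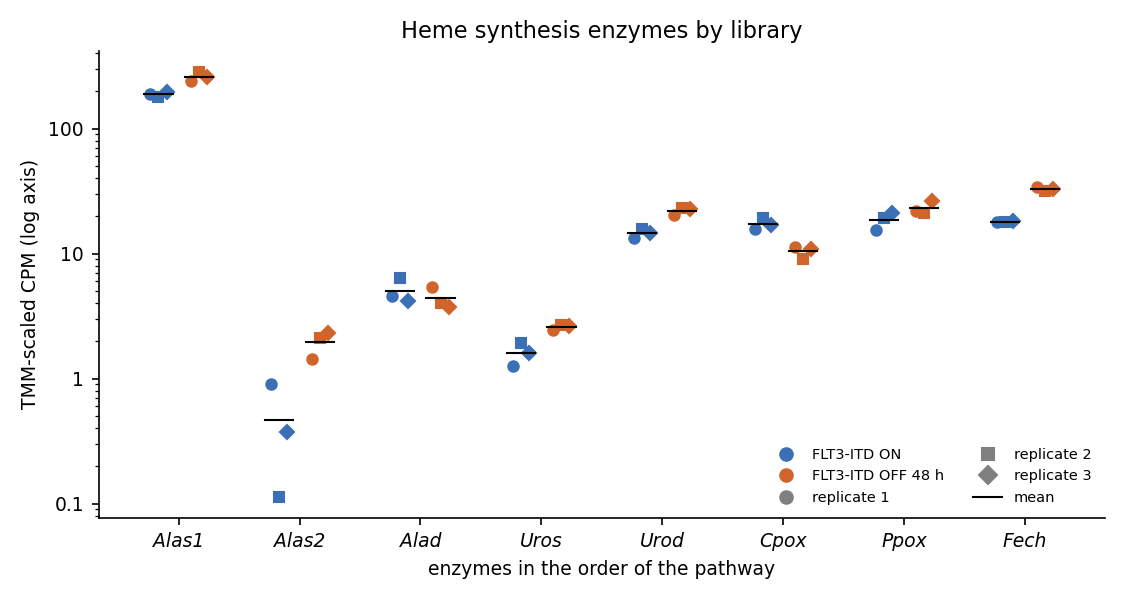
TMM-scaled CPM of heme synthesis enzymes on a log axis in the order of the pathway (Alas1 and Alas2 share the first step), 1 point per library with the group mean as a black line. Alas1, Alas2, Urod and Fech lie higher in the 3 OFF libraries and Cpox lower, while Alas2 stays at 2.30 CPM or less.

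Iron handling genes moved both ways. Of 17 tested, 3 rose and 4 fell (17.6% and 23.5%, near the 17.3% and 17.5% of all rows), with a median of -0.22. The iron exporter Slc40a1 rose from 22.3 ± 2.13 to 44.0 ± 11.8 CPM (0.98, adjusted p = 0.001) and Ncoa4, the receptor for ferritin breakdown, by 0.73 (0.00208). The ferritin light chain Ftl1 rose by 0.35 (0.0214) but did not pass without ON replicate 2 or 3 (up to 0.111). The transferrin receptor Tfrc, the main iron uptake route of red cell precursors, fell from 45.3 ± 6.76 to 29.0 ± 6.02 CPM (-0.65, adjusted p = 0.00466), and Glrx5, of iron-sulfur cluster assembly, from 52.2 ± 3.18 to 30.3 ± 2.35 CPM (-0.78, adjusted p = 1.24e-04).

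The other 2 that fell were Fbxl5 (-0.39, adjusted p = 0.0159) and the iron transporter Slc11a2 (-0.54, adjusted p = 0.0415). Fbxl5 lost its call without ON replicate 2 or OFF replicate 2 (up to 0.0965), and Slc11a2 lost it in 6 of 13 other settings. Without OFF replicate 3, 7 members were called lower, and without ON replicate 2 or OFF replicate 2, 2 were. The iron chaperones Pcbp1 and Pcbp2 gave -0.25 and -0.06 (adjusted p = 0.0592 and 0.701).

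**Figure D5:**
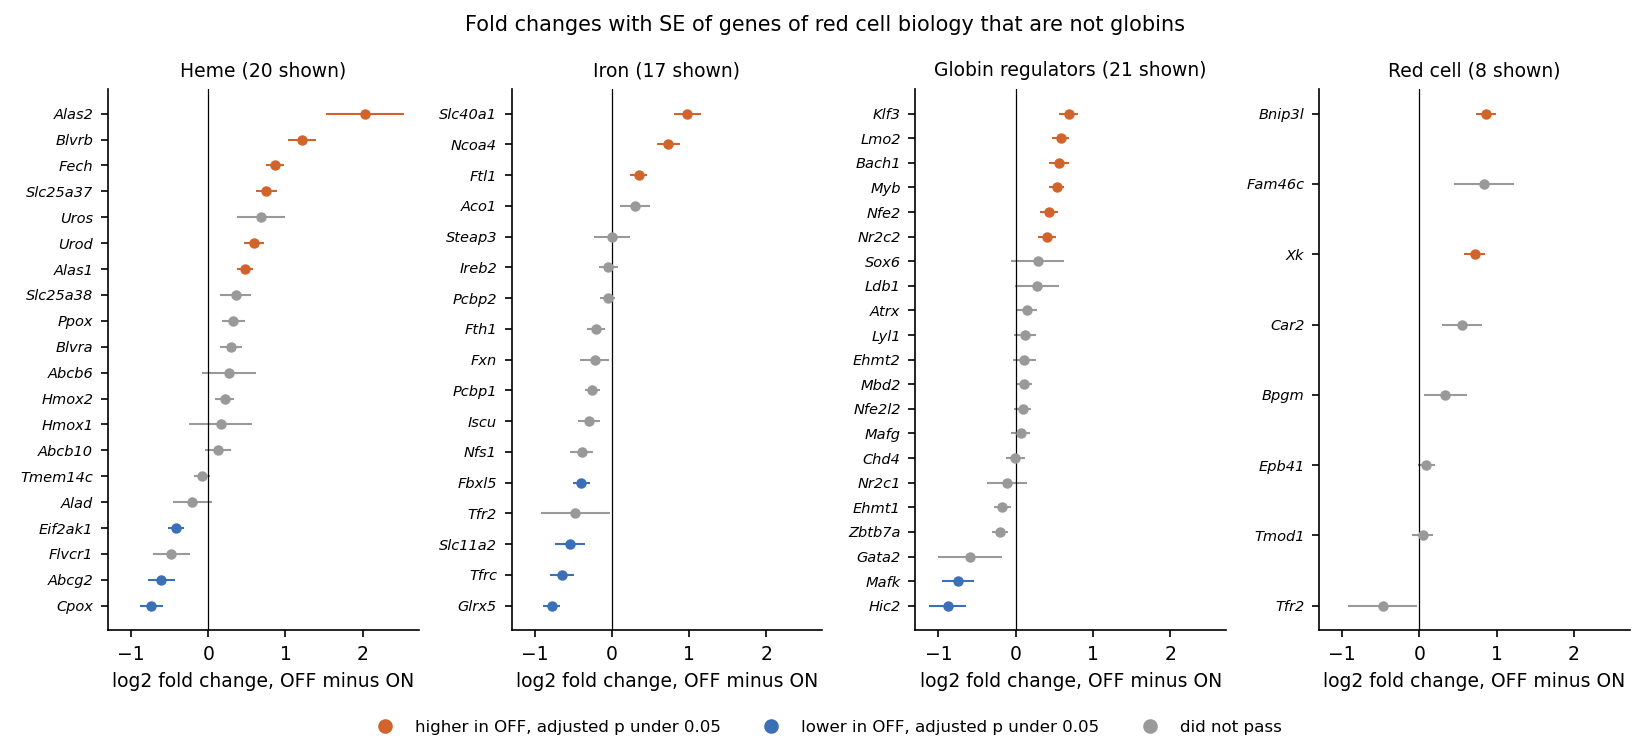
Log2 fold change (OFF minus ON) with SE of tested genes in the heme, iron, globin regulator and red cell lists, coloured by whether it was called higher (orange), lower (blue) or not (grey). Alas2 stands at 2.03, and no other gene drawn exceeds the 1.22 of Blvrb.

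Genes that guard free globin chains and limit oxidation were mixed, and Ahsp of this list had no row. Of the 8 tested, 1 rose and 4 fell (12.5% and 50%, against 17.3% and 17.5% of all rows tested), with a median of -0.29. The chaperones Hspa8 and Hspa1b fell by 0.78 and 2.02 on the log2 scale (adjusted p = 1.84e-04 and 2.02e-07), Hspa1a fell by 1.30 (0.00818), and Gclm, of glutathione synthesis, fell by 0.52 (0.00213). Gpx1 rose by 0.35 (0.0246) but did not pass without ON replicate 2 or 3 (up to 0.119), and Sod1 gave -0.06 (0.701). Hspa1a and Hspa1b are near-identical copies whose reads could be split between them.

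The rows whose log2 level followed the summed globin level most closely over the 6 libraries were Clec4b1, Tada3, Acox3, Bmx, Fry and Pon3, with Pearson correlations of 0.9965 to 0.9986. Of 10828 rows compared, 1348 had a correlation over 0.9, so a high value was common. Clec4b1, a lectin receptor of myeloid cells, read 1.59, 1.48 and 1.24 CPM in ON against 4.10, 6.11 and 5.92 CPM in OFF. When each library was taken as its deviation from the mean of its group, the closest were Ggact, Sat1, F5, Klra17 and Hnmt (0.9876 to 0.9927), and 174 rows were over 0.9. None of these genes belongs to the red cell, heme, iron or regulator lists, and Alas2 was not among them. Both measures rest on 6 points that share library and depth.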

How the data were processed

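RNA of sorted leukaemic cells from 6 NSG mice was made into Lexogen QuantSeq 3' libraries, per the labels' protocols. Per the submitters' processing notes, the tools included cutadapt 1.9.1, HISAT2 2.0.4 and featureCounts of Subread 1.6.3, with build mm10; no source used here gives the annotation, strand or multi-mapping settings. Raw counts stood in a table deposited by the authors; 1105 of 54838 rows had no name (0.145% to 0.172% of counts) and were left out. The authors' deposited log2 table, made with limma 3.42.2 per the submitters' processing notes, served as an alternative only.

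Rows were kept by filterByExpr (minimum count 10, minimum total 15) and scaled by TMM. They were fitted with glmQLFit and glmQLFTest in edgeR 4.0.16 (R 4.3.3), OFF against ON, without covariates. The fit was also run on simulated counts with the same spread for every row, a simpler case than these data. Its requirement on the smaller fold changes was dropped after a first run fell short. P-values were adjusted by the Benjamini-Hochberg method over 13652 rows at 0.05; SE is the fold change over the square root of F. Members carry no test. Replicates differed by more than sampling noise (chi-square per degree of freedom at least 2.8), and p-values measure the spread between mice. An exact permutation of 3 against 3 cannot go below 0.1. The numbers of same-numbered ON and OFF libraries did not pair them.

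The members and lists were chosen with earlier results of these data known. Named were the members, other globin rows with a count, up to 4 genes of smallest p and 3 of highest level per list, and the 6 rows of most alike pattern by either measure, on log2(CPM + 0.5) for rows of at least 1 CPM; a few others are said to be chosen later, and the remaining called genes of the main lists were named to complete their counts. A few genes that the rule or the lists include are not reported here. Where a symbol had several rows, the first was used. Alternatives were DESeq2 1.42.0, other scalings, no filter, a replicate block and each library left out.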

Additional observations from a re-analysis of the deposited data

How the results depend on the processing

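The log2 ratio of summed globin levels stayed between 1.95 and 2.27 over the 12 other settings run for it, the authors' normalised table included (2.12), and moved by less than the spread between mice in each. The count of rows called was 4746, between 3294 and 5444 on leaving out each library in turn, 3793 with the DESeq2 Wald test and 5029 with no filter. Without a filter, 4 red cell genes were called higher in place of 2, with Slc4a1 among those added. On leaving out single libraries, 1 to 2 globin regulators and 2 to 7 iron handling genes were called lower. Same-numbered libraries deviated from their group means with correlations of 0.0384, -0.0869 and -0.0572, so the numbers did not pair the samples. No library correlated with its own number above 0.1. The replicate block gave 4404 calls. It cannot change the summed log2 ratio, which is taken from group means, so its place among the 12 settings is no check of that ratio. The alpha to beta ratio ranged from 3.13 to 3.48 in ON and 2.83 to 2.96 in OFF with 1 library left out, an alternative chosen after seeing the data. Depth limits the red cell list: 25 of its genes had too few counts to be tested.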
